A study of Mus musculus with 22 samples.

Results

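Distal mouse chromosome 16 carries a block of genes whose orthologues lie on human chromosome 21, and a list of 53 of these genes was looked up by symbol, older symbol or gene identifier on the array. A probe set was found for 52 of them, among 15780 named genes, and Btg3 had none. RNA was measured on 22 Affymetrix arrays from male mice aged 2 months, of which the Ts43H males were trisomic and their t121/D17 siblings euploid. Liver, pre-mid-pachytene spermatocytes and spermatids had 3 arrays per genotype and mid-late-pachytene spermatocytes had 2, and the germ cells were sorted by flow cytometry. Spermatocytes of the earlier and of the later gate are called pre-mid and mid-late cells here. The labels give neither the breakpoints of the extra chromosome of Ts43H nor what t121/D17 stands for, and they leave unsaid if each array stands for another animal, so p-values measure the spread between these arrays, which may be technical.

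People with Down syndrome carry an extra copy of human chromosome 21, and mouse models of the syndrome are usually built by adding a copy of this stretch of chromosome 16. The small extra chromosome of Ts43H goes back to a chromosome 16 and 17 translocation and adds the centromeric end of chromosome 17, so the stretch studied here is taken as the disomic side of the translocation. Pachytene is the stage of male meiosis at which homologous chromosomes are paired along their length, and chromatin that stays unpaired there is transcriptionally silenced. The question for these genes is how they are used in liver and in each germ cell stage, and whether their level moves when another chromosome is trisomic.

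All values are the authors' log2 intensities, and differences are in log2 units. Values below 3 are called the background range. Genes of the first 30 Mb of chromosome 17, set here as the trisomic segment, served as the check of the genotype labels: their median stood 0.66 to 0.71 above the euploid mean on each trisomic liver array, and between -0.04 and 0.05 on the euploid ones. The shift was smaller in germ cells. Trisomic pre-mid arrays stood at 0.21, 0.16 and 0.33, where all tested genes stood at 0.10 to 0.12, and euploid ones between -0.07 and 0.08. Trisomic arrays stood at 0.31 and 0.27 in mid-late cells and at 0.27, 0.41 and 0.39 in spermatids. The euploid arrays of these 2 stages stood between -0.05 and 0.07. Hepatocyte markers followed the labels, with a median level of 16.05 ± 0.06 in trisomic and 16 ± 0.12 in euploid liver (SD, n = 3 each, 7 genes). Their level was 2.32 to 2.47 in the germ cell groups. Germ cell markers followed the labels in part. Early meiotic markers were 13.29 in trisomic and 13.1 in euploid pre-mid cells, but still 10.95 and 11.04 in spermatids. Pachytene markers were 13.31 and 13.03 in pre-mid cells, 14.44 and 14.53 in mid-late cells, and 14.04 and 14.07 in spermatids. Round spermatid markers were 13.62 and 13.58 in spermatids, against 9.57 and 10.11 in pre-mid cells and 9.87 and 10.11 in mid-late cells. Markers of elongating spermatids were as high in pre-mid cells (14.30 ± 0.46 trisomic, 14.28 ± 0.23 euploid, 8 genes) as in spermatids (14.55 ± 0.26 trisomic, 14.80 ± 0.13 euploid), and lower in mid-late cells (10.59 trisomic, 10.83 euploid). Spermatogonial and Leydig markers had group medians of 4.21 or less in every germ cell group. Sertoli markers (8 genes) stood higher in pre-mid cells, at 5.74 in trisomic and 5.87 in euploid arrays, and 5 averaged 4 or more there. They were at 3.87 and 3.89 in mid-late cells and at 3.76 and 3.90 in spermatids. Their part in the results for pre-mid cells was not tested. In a bulk sample, fewer cells of a type and less RNA per cell cannot be told apart.

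Few of the 52 genes passed the test between trisomic and euploid animals. Trisomic minus euploid differences were tested where a gene averaged 4 or more on the arrays of that cell type, with limma's moderated test and Benjamini-Hochberg adjustment at 0.05 over all such genes. In liver 1 of the 40 tested genes rose and none fell, where 9.55% of all tested genes were called (5.77% higher, 3.78% lower). In pre-mid cells 3 of 34 rose and none fell, against 10.3% of all (5.88% higher, 4.46% lower). No gene of 34 was called in mid-late cells or of 34 in spermatids, where 0.965% (0.569% higher, 0.396% lower) and 0.821% (0.29% higher, 0.531% lower) of all tested genes were called. An unadjusted p under 0.05 was found for 4 of 34 genes in each of these. Among all tested genes it was found for 619 of 8085 in mid-late cells and 720 of 8283 in spermatids. The share called was thus near or under that of the whole array in each of the 4 cell types. Single arrays moved these counts: liver gave 7 calls (3 higher, 4 lower) without euploid replicate 1 and 2 or 3 without euploid replicate 2 or any 1 trisomic array, with Mis18a among them each time. Pre-mid cells gave 1 without euploid replicate 1 or trisomic replicate 1 or 2, mid-late cells 2 without euploid replicate 1, and spermatids 1 without trisomic replicate 1.

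**Figure D1:**
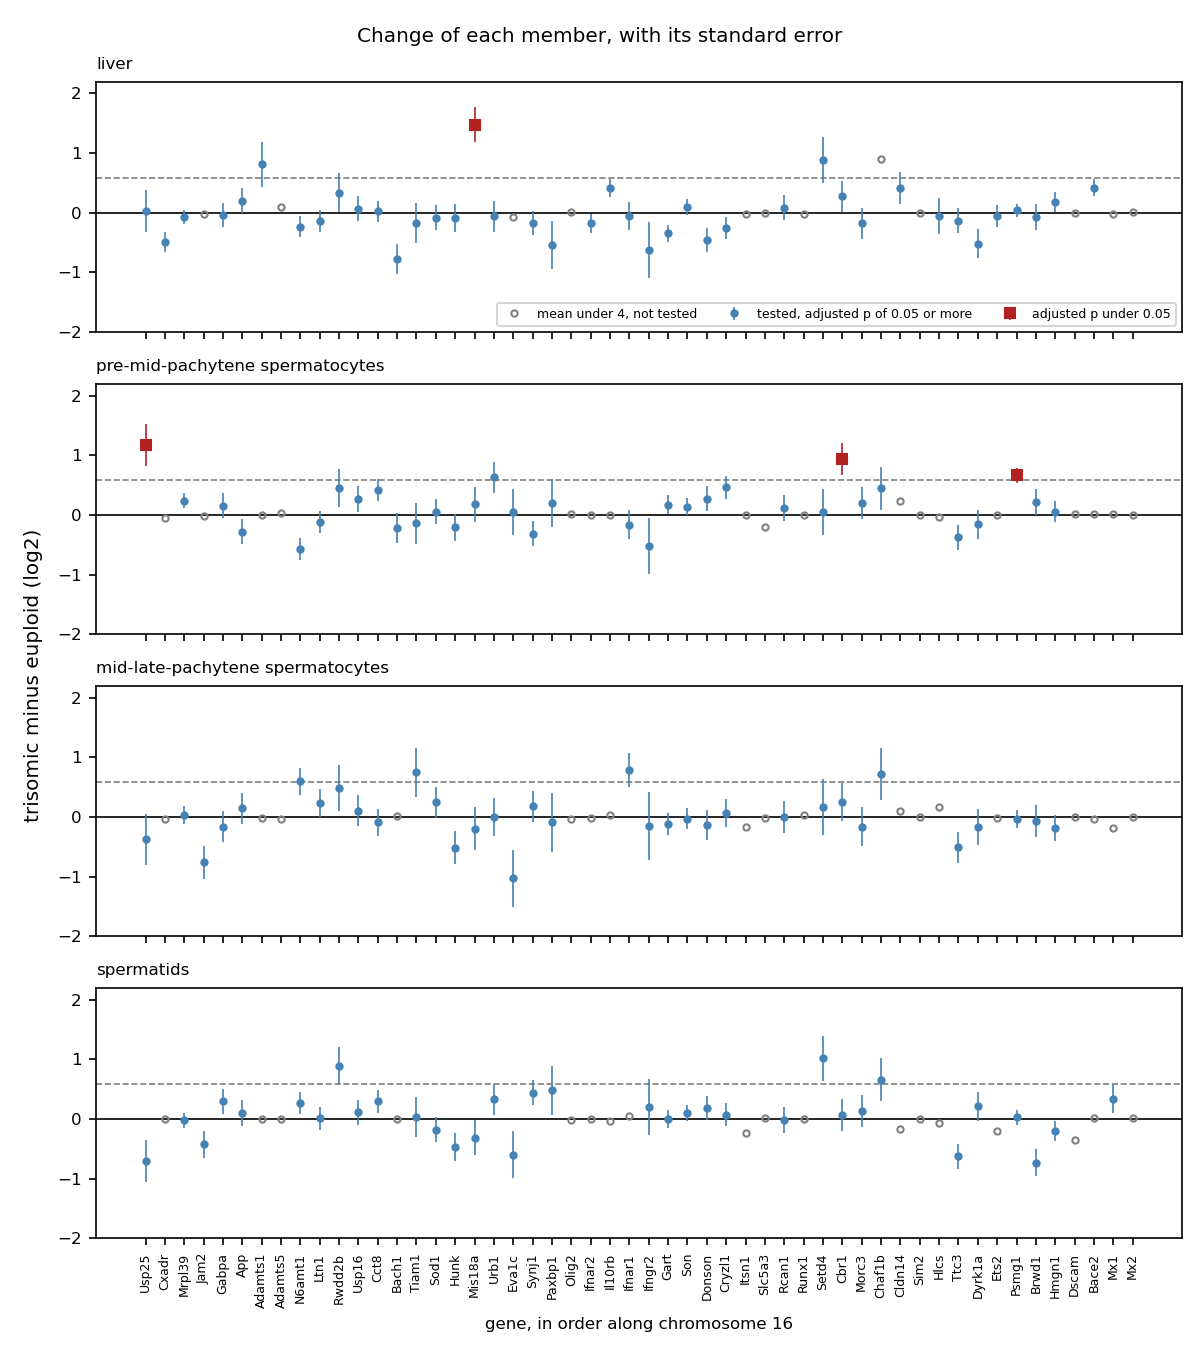
Trisomic minus euploid difference (vertical axis, log2) of each gene in its order along chromosome 16 (horizontal axis), in 4 cell types, with standard errors from the limma fit. Squares mark the 1 gene in liver and the 3 in pre-mid cells past the threshold, open circles genes with a mean under 4, and the dashed line a 1.5-fold rise (0.585).

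The median difference over the 52 genes was -0.02 in liver, 0.01 in pre-mid cells, -0.02 in mid-late cells and 0.01 in spermatids, beside 0.00, 0.01, -0.02 and 0.01 over all named genes. Over the tested genes alone it was -0.06, 0.15, -0.03 and 0.08, beside -0.01, 0.11, 0.00 and 0.01 for all tested genes. On single trisomic liver arrays the median of the 40 tested genes stood at -0.06, -0.14 and 0.02 relative to the euploid mean, and on the euploid liver arrays at -0.03, 0.03 and -0.05, so the genotypes overlapped. Pre-mid arrays gave 0.21, 0.11 and 0.12 for trisomic and 0.01, 0.11 and -0.14 for euploid animals. The 144 tested genes of the trisomic segment in liver had a median of 0.67, with 68 called higher and none lower. In pre-mid cells the segment median was 0.24, with 16 of 154 higher and 2 lower. It was 0.30 in mid-late cells (1 of 144 higher) and 0.36 in spermatids (3 of 148 higher), with none lower.

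An extra copy used at full rate would give a 1.5-fold value, or 0.585 in log2. In liver the 95% interval of the difference lay wholly under that value for 29 of 40 genes of the block, held it for 10 and lay above it for 1. It lay wholly under it for 17 of 34 in pre-mid cells, 19 of 34 in mid-late cells and 18 of 34 in spermatids, and the other genes' intervals held it. Among all tested genes the same share was 62.6% in liver, 48.8% in pre-mid cells, 49.1% in mid-late cells and 61.8% in spermatids. In the trisomic segment 12 of 144 genes had such an interval in liver and 58 of 154 in pre-mid cells. It was 27 of 144 in mid-late cells and 25 of 148 in spermatids. By this measure the block and the segment differed less in the germ cells than in liver.

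**Figure D2:**
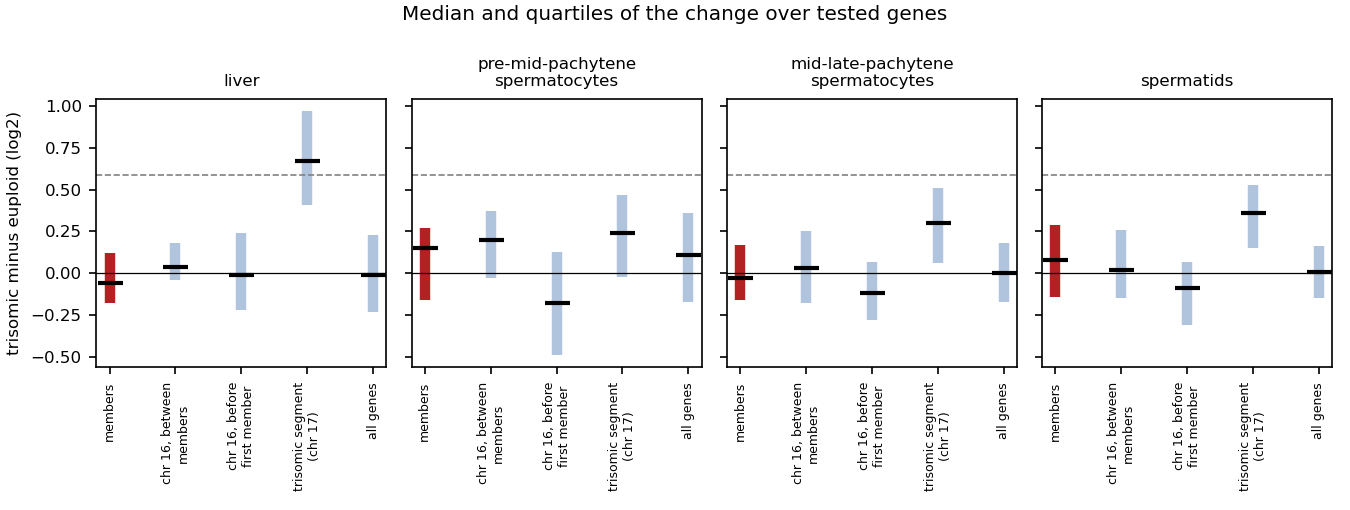
Median (black line) and quartiles (thick line) of the trisomic minus euploid difference over tested genes of each region, in 4 cell types, with the dashed line at 0.585. The block of 52 genes sits near 0 in liver (median -0.06), where the trisomic segment is at 0.67.

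Position along the block was described by dividing the genes into 3 runs by order. In liver the median of the tested genes was -0.05 in the run from Usp25 to Mis18a, -0.17 in the run from Urb1 to Runx1 and 0.00 in the run from Setd4 to Mx2. In the same order the runs were at 0.10, 0.14 and 0.20 in pre-mid cells, at 0.07, -0.03 and -0.06 in mid-late cells and at 0.03, 0.14 and 0.10 in spermatids. The 34 tested genes of the whole block had a median of 0.15 in pre-mid cells, with 3 called higher and none lower, where 225 tested genes of chromosome 16 nearer the centromere than Usp25 had a median of -0.18, with 3 higher and 29 lower. The 15 tested genes that lie between members without belonging to the list had a median of 0.20 in pre-mid cells. In the other cell types the genes nearer the centromere than Usp25 had a median of -0.01 in liver (221 tested, 13 higher, 8 lower). It was -0.12 in mid-late cells (215 tested, 1 higher, 1 lower) and -0.09 in spermatids (220 tested, 1 higher, 2 lower). These regional medians were not tested against each other.

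Mis18a was the gene called in liver. It encodes a subunit of the Mis18 complex, which prepares centromeres to receive the histone variant CENP-A. Its level was 7.96, 7.18 and 7.54 on the trisomic arrays, against 5.55, 5.88 and 6.84 on the euploid arrays. Every trisomic liver array lay above every euploid one, and the difference was 1.47 (SE 0.29, adjusted p = 0.00323), with a 95% interval of 0.86 to 2.09. The call held without any single liver array, with adjusted p between 0.000332 and 0.0194, but not when the fit used liver arrays alone (adjusted p = 0.144). In the germ cells Mis18a differed by 0.18 in pre-mid cells, -0.19 in mid-late cells and -0.31 in spermatids, none of them called.

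Of the other genes of centromere and chromatin assembly, 1 of 4 tested rose in liver and none fell. It was Cenpa, the centromeric histone itself, with a difference of 2.01 (SE 0.44, adjusted p = 0.00651), and its change was lower in pre-mid cells than in liver, by -2.69 (SE 0.61, adjusted p = 0.0188). Marker lists of other liver cell types stood as follows beside these genes. The median level of 9 endothelial and stellate cell markers was 8.02 ± 0.38 in trisomic and 6.09 ± 0.06 in euploid liver (SD, n = 3 each), their summed level was 63.06 to 65.92 in trisomic and 59.97 to 62.93 in euploid arrays, 2 of the 9 were in the background range in both genotypes, and 1 of 6 tested rose. Macrophage and leukocyte markers had a summed level of 49.40 to 52.51 in trisomic and 44.96 to 51.24 in euploid liver, with 2 of 8 in the background range and none of 6 tested called. Red blood cell markers went the other way, with a summed level of 13.04 to 14.13 in trisomic and 14.81 to 15.51 in euploid liver. Of these 2 genes 1 was in the background range, and the 1 tested was called lower. The part of these cells in the liver results was not tested.

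In pre-mid cells the called genes were Psmg1, Cbr1 and Usp25. Psmg1 encodes a chaperone of proteasome assembly, and its level was 12.18, 12.08 and 11.94 on the trisomic arrays, against 11.30, 11.51 and 11.40 on the euploid arrays. The genotypes did not overlap, and the difference was 0.66 (SE 0.12, adjusted p = 0.00398). Usp25 encodes a deubiquitinating enzyme and had 6.61, 6.22 and 6.24 on the trisomic arrays, against 4.96, 5.82 and 4.76 on the euploid arrays. Again no trisomic array lay below a euploid one, with a difference of 1.18 (SE 0.35, adjusted p = 0.0407). Cbr1, a carbonyl reductase of the cytosol, had 5.37, 5.95 and 5.11 on the trisomic arrays, against 4.59, 3.88 and 5.14 on the euploid arrays. Here 1 euploid array lay between the trisomic ones, and the difference was 0.94 (SE 0.27, adjusted p = 0.0323).

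Psmg1 kept its call without any single pre-mid array (0.61 to 0.72) and lost it when the fit used pre-mid arrays alone (adjusted p = 0.0944). Usp25 and Cbr1 rested on more of the design. Their adjusted p was 0.114 and 0.191 with pre-mid arrays alone and 0.0843 and 0.0592 with no filter on low values. Usp25 kept its call without euploid replicate 2 and lost it without any other single array. Cbr1 lost its call without euploid replicate 1 or trisomic replicate 1, and its difference fell to 0.61 without euploid replicate 2 and 0.70 without trisomic replicate 2, neither called. Round spermatid markers had a summed level of 62.58 to 67.02 on trisomic and 67.90 to 74.34 on euploid pre-mid arrays, with none of the 7 in the background range and 2 called lower. Pachytene markers had 89.42 to 89.83 on trisomic and 87.46 to 88.55 on euploid arrays, with 1 of 7 called higher. Their part in the results for pre-mid cells was not tested.

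**Figure D3:**
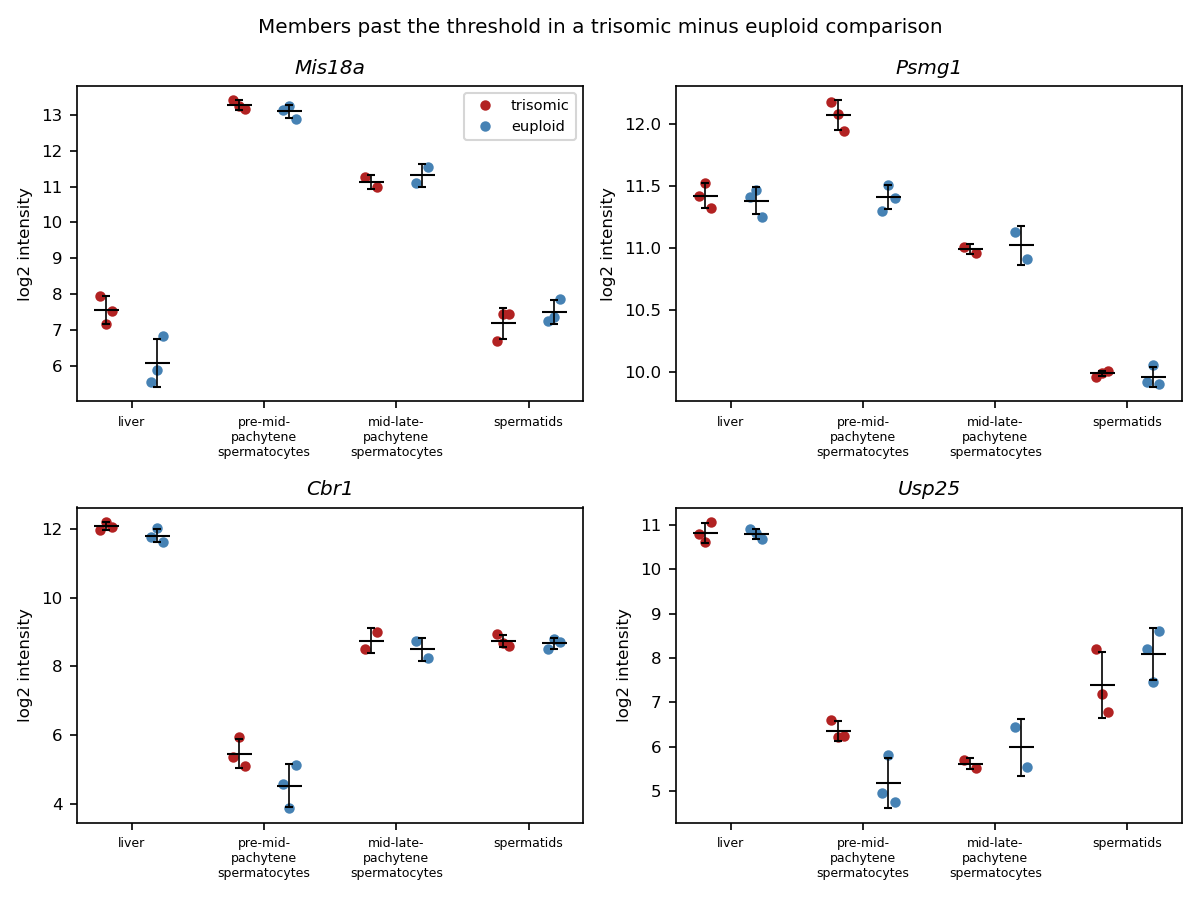
Log2 intensity (vertical axes, each on its own scale) of the 4 genes past the threshold in a trisomic against euploid comparison, on every array of the 8 groups, with the mean and SD in black. Mis18a lies apart by genotype in liver, Psmg1 and Usp25 lie apart in pre-mid cells, and Cbr1 overlaps there (5.11 to 5.95 trisomic, 3.88 to 5.14 euploid).

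The 250 bases before the start of each of these 4 genes are shown because these members passed the threshold between genotypes with all arrays. They were taken from RefSeq promoter windows of GRCm38.p6 and run 5′ to 3′ on the gene's strand, with capitals marking CCGGAAG (the core bound by ETS factors such as Gabpa and Ets2) and TGACG (the short form of the cAMP response element) on either strand.
Mis18a, chr16:90727372-90727621, minus strand: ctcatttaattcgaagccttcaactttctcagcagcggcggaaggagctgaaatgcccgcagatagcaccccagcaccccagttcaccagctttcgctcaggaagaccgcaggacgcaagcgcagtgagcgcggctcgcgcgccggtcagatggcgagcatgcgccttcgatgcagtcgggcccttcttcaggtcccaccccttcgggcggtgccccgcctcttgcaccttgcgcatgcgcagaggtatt
Psmg1, chr16:95990961-95991210, minus strand: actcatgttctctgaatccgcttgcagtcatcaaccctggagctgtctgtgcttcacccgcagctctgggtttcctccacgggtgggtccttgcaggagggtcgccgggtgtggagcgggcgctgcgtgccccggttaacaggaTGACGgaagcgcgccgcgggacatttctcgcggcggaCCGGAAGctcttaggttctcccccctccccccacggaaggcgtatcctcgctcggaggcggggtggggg
Usp25, chr16:77013819-77014068, plus strand: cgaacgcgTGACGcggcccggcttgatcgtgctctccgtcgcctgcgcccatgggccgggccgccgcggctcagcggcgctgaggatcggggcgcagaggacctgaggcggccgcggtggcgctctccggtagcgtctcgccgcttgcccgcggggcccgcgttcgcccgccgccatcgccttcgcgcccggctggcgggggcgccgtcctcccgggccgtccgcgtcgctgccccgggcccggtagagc
Cbr1, chr16:93607587-93607836, plus strand: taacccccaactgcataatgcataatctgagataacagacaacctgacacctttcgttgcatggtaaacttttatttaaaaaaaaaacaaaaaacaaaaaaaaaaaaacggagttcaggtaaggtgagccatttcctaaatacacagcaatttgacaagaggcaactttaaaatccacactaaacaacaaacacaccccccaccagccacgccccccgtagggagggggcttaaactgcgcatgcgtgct

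RefSeq promoter windows, which add the first 50 bases after the start, were given for 43 of the 52 genes. Of these genes 12 held CCGGAAG in a window (12 of 52 windows), where 8.86% of 32851 windows of all genes hold it. Psmg1 was among them, as were Gabpa itself, Cct8, Chaf1b, Donson, Urb1, Usp16, Gart, Setd4, Hlcs, Ifnar1 and Dscam. TGACG stood in 17 of the 52 windows, against 20.8% of all windows, and its full palindrome TGACGTCA, which contains it, stood in 1 (Rcan1), against 1.79%. CNGTTA, the core bound by MYB factors, stood in 10 windows, against 23.3% of all, and the core of the interferon-stimulated response element, which is a pair of GAAA runs 2 bases apart, in none, against 3.44%. Both strands were searched, and a match describes these letters only. The starts of Gart and Son lie head to head 850 bases apart, and those of Cryzl1 and Itsn1 567 bases apart.

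Differences between cell types in the trisomic minus euploid change were tested directly, where a gene averaged 4 or more in both. Psmg1 changed more in pre-mid cells than in liver, by 0.62 (SE 0.17, adjusted p = 0.0444), the only one of 32 genes of the block called, where 5.21% of all tested genes were (3.26% higher, 1.95% lower). Its own change was 0.66 in pre-mid cells and 0.04 in liver. Mis18a changed less in spermatids than in liver, by -1.78 (SE 0.41, adjusted p = 0.0445), the only one of 30 genes called, against 0.982% of all (0.3% higher, 0.683% lower). Its change was -0.31 in spermatids and 1.47 in liver. No gene of 31 was called for mid-late cells against liver by limma (0.924% of all, 0.363% higher and 0.561% lower). There 3 of 31 had an unadjusted p under 0.05, beside 647 of 6058 among all tested genes. Both calls were lost in a fit of the compared cell types alone (adjusted p = 0.0957 for Psmg1 and 0.165 for Mis18a), and without at least 1 array in each of the groups concerned.

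Among genes that were not called, the arrays of the genotypes stood apart for Donson, Dyrk1a, Gart (lower in trisomic liver) and Hmgn1 (higher), where 11.8% of all tested genes had every trisomic array above the euploid ones and 11.3% had every one below, 23.1% in all. Dyrk1a, a kinase whose dosage is studied in Down syndrome, had 6.21, 6.13 and 6.57 on the trisomic arrays, against 6.89, 6.95 and 6.63 on the euploid arrays in liver, a difference of -0.52 (SE 0.24, adjusted p = 0.22). Donson, a factor of DNA replication, had 4.64, 4.63 and 4.60 on the trisomic arrays, against 4.65, 5.28 and 5.32 on the euploid arrays , a difference of -0.46 (SE 0.20, adjusted p = 0.185). Neither passed the threshold. Nearest to it in liver without passing was Bach1, a repressor released by haem, with 8.0, 7.42 and 7.11 on the trisomic arrays, against 7.95, 8.19 and 8.71 on the euploid arrays and a difference of -0.77 (SE 0.25, adjusted p = 0.0595). Its arrays overlapped.

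In pre-mid cells 6 tested genes had every trisomic array above the euploid ones (Usp25, Urb1, Donson, Cryzl1, Psmg1 and Brwd1) and 1 had every array below (N6amt1), against 20.8% and 9.46% of all tested genes, 30.3% together. Urb1, a nucleolar factor of ribosome synthesis, had 12.48, 12.37 and 12.68 on the trisomic arrays, against 11.76, 12.16 and 11.72 on the euploid arrays, a difference of 0.63 (SE 0.26, adjusted p = 0.136). N6amt1, a methyltransferase that modifies a translation release factor, had 7.92, 7.66 and 7.96 on the trisomic arrays, against 8.43, 8.26 and 8.56 on the euploid arrays, a difference of -0.58 (SE 0.18, adjusted p = 0.0536). The first was higher and the second lower on all 3 trisomic arrays, but neither passed the threshold. In mid-late cells N6amt1 went the other way, with 5.36 and 5.11 on trisomic and 4.64 and 4.64 on euploid arrays. That difference was 0.60 (SE 0.22, adjusted p = 0.391 by limma), not called. It differed by -0.23 in liver and 0.28 in spermatids, neither called.

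Mid-late cells, with 2 arrays per genotype, had 7 genes apart upwards and 5 downwards of 34, against 17.7% and 15.3% of all tested genes, 33.0% together. Ifnar1 had 5.29 and 6.04 on the trisomic arrays, against 5.11 and 4.65 on the euploid arrays (0.79, SE 0.29, adjusted p = 0.376). Tiam1, an activator of the GTPase Rac, had 6.48 and 6.25 on the trisomic arrays, against 5.67 and 5.56 on the euploid arrays (0.75, SE 0.41, adjusted p = 0.804). Eva1c, a membrane protein, had 4.21 and 5.36 on the trisomic arrays, against 5.64 and 5.98 on the euploid arrays (-1.03, SE 0.48, adjusted p = 0.627). The genotypes stood apart for these 3 genes, none was called, and the 2 euploid mid-late arrays differed in the round spermatid markers (the trisomic arrays had medians of 9.86 and 9.89, the euploid arrays 9.18 and 11.03).

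In spermatids 2 genes stood apart upwards (Cct8 and Chaf1b) and 2 downwards (Hunk and Ttc3) of 34, against 7.45% and 5.57% of all tested genes, 13.0% together. Chaf1b, of the chromatin assembly factor, had 8.34, 8.57 and 8.17 on the trisomic arrays, against 7.75, 7.80 and 7.55 on the euploid arrays (0.66, SE 0.36, adjusted p = 0.685). Ttc3, a ubiquitin ligase, had 5.19, 4.96 and 5.17 on the trisomic arrays, against 5.57, 5.81 and 5.79 on the euploid arrays (-0.62, SE 0.21, adjusted p = 0.248). Hunk, a kinase of the AMPK-related family, had 11.98, 11.67 and 11.86 on the trisomic arrays, against 12.28, 12.49 and 12.14 on the euploid arrays (-0.47, SE 0.23, adjusted p = 0.602). Ttc3 and Hunk were also lower on both trisomic mid-late arrays, with differences of -0.51 and -0.51, none of these called. Brwd1, a bromodomain protein needed for fertility in mice, had 6.37, 7.16 and 6.88 on the trisomic arrays, against 8.14, 7.39 and 7.07 on the euploid arrays in spermatids, a difference of -0.73 (SE 0.22, adjusted p = 0.167), and its arrays overlapped.

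Differences over the 52 genes ran from -7.40 to 7.10 between cell types, against -1.03 to 1.47 between genotypes. On euploid arrays, with a call at an adjusted p under 0.05 by limma and a difference of at least 1, 34 of the 52 genes differed between pre-mid cells and liver (19 higher, 15 lower), 35 between mid-late cells and liver (17 and 18) and 34 between spermatids and liver (15 and 19), where 49.3% (26.1% higher, 23.1% lower), 53.1% (28.3% and 24.8%) and 56.1% (28.8% and 27.3%) of all named genes were called. Within the germ line 20 differed between mid-late and pre-mid cells (11 higher, 9 lower) and 17 between spermatids and mid-late cells (7 and 10), against 39.0% (21% higher, 18.1% lower) and 26.8% (13.4% and 13.4%) of all. The trisomic arrays gave 33, 35, 36, 20 and 15 calls for the same comparisons, of which 33, 32, 32, 18 and 14 were calls of the euploid arrays too. Centring each array on its autosomal median moved the median difference of all genes to -0.35, 0.05, -0.16, 0.40 and -0.21 in these comparisons, beside 0.03, 0.10, 0.07, 0.06 and -0.03 as deposited.

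**Figure D4:**
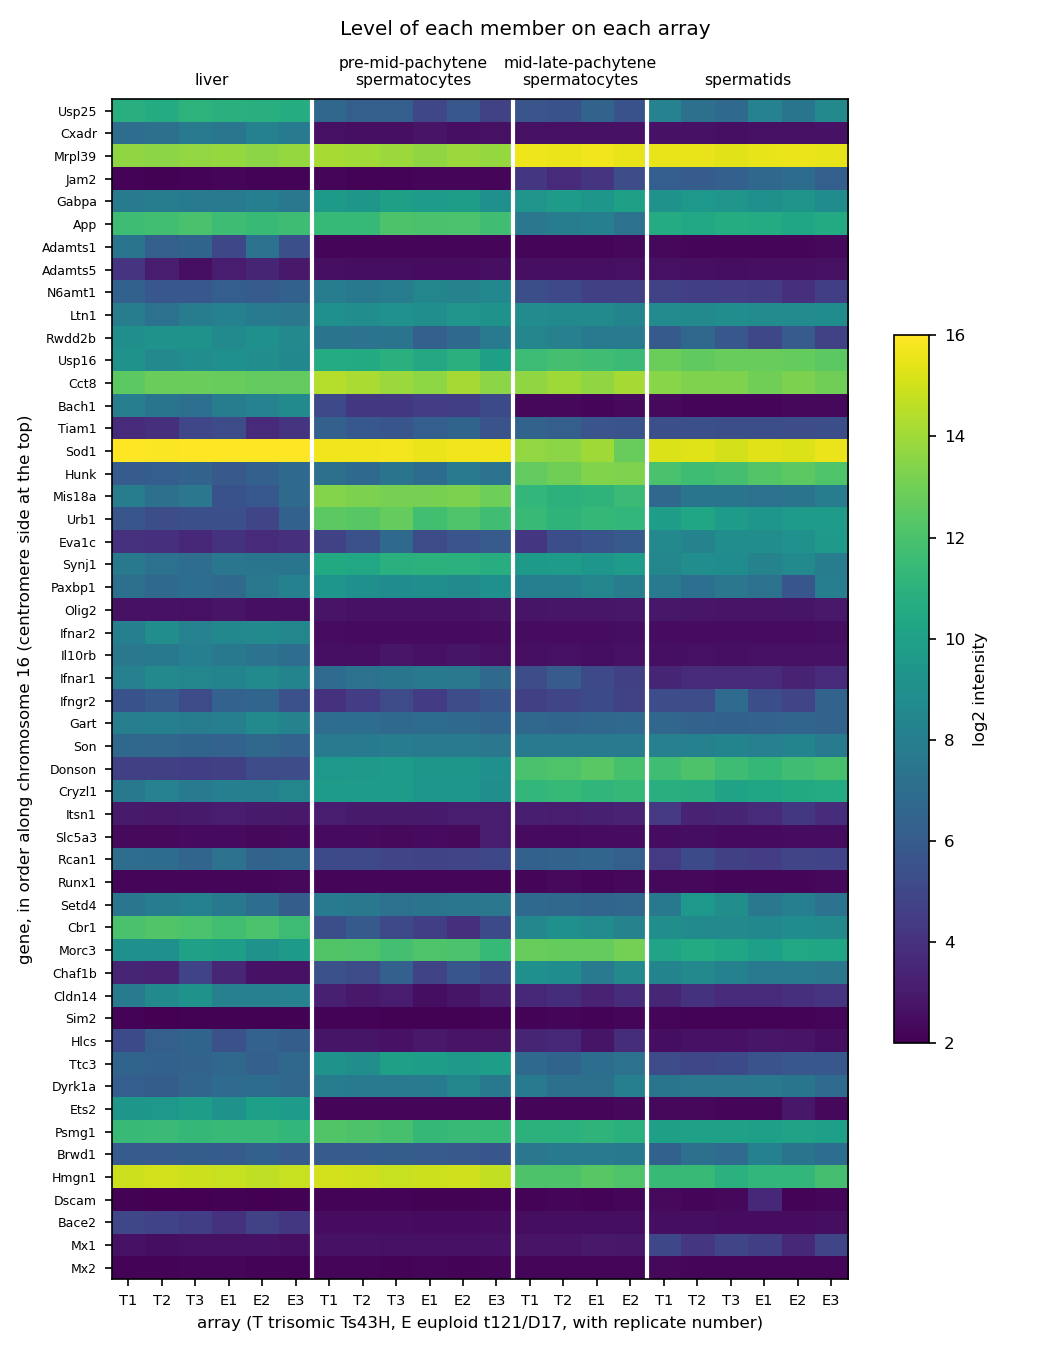
Log2 intensity (colour) of the 52 genes (rows, in order along chromosome 16) on the 22 arrays (columns), trisomic then euploid within each cell type. Differences run mainly between cell types, as for Ets2 (9.21 to 9.92 in euploid liver) and Hunk (13.28 and 13.33 in euploid mid-late cells).

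By level the genes fell into a few classes. For 35 at least 1 array lay above the background range in each of the 4 cell types. In 7 every germ cell array was in the background range while at least 1 liver array was above it (Cxadr, Adamts1, Adamts5, Ifnar2, Il10rb, Ets2 and Bace2), and in 4 every liver array was in it while a germ cell array was above (Jam2, Slc5a3, Dscam and Mx1). The liver arrays of Adamts5 lay on both sides of 3, from 2.57 to 4.17. Olig2, a factor of the oligodendrocyte lineage, Runx1, a factor of blood formation, Sim2, a factor of the nervous system midline, and the interferon-induced Mx2 were in the background range on all 22 arrays. Bach1 was in it in mid-late cells and spermatids and Hlcs in pre-mid cells and spermatids. The share of the block in the background range was 15.4% in liver, 28.8% in pre-mid cells, 28.8% in mid-late cells and 26.9% in spermatids, beside 34.2%, 37.3%, 36.8% and 34.5% of all genes. The following values are for euploid arrays, with means and SD over 3 arrays, or 2 in mid-late cells, and levels of different genes are not set against each other because they come from different probes.

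Among the membrane proteins, App, the precursor of amyloid beta, had 12, 12.01 and 11.69 in pre-mid cells, 8.02 and 7.21 in mid-late cells, 10.59, 10.25 and 10.55 in spermatids, against 11.67, 11.49 and 11.63 in liver. It fell in mid-late against pre-mid cells, by 4.28 (SE 0.23, adjusted p = 1.8e-10), and rose again in spermatids, by 2.85 over mid-late cells (SE 0.23, adjusted p = 7.93e-08). Elongating spermatid markers were also lowest in mid-late cells among the euploid germ cells, with medians of 14.28 in pre-mid cells, 10.83 in mid-late cells and 14.80 in spermatids, and their part in the levels of App was not tested. Eva1c had 5.22, 5.71 and 6.0 in pre-mid cells, 5.64 and 5.98 in mid-late cells, 8.90, 9.10 and 9.57 in spermatids, against 4.06, 3.71 and 3.96 in liver, and spermatids stood 5.28 (SE 0.41, adjusted p = 4.58e-09) above liver. Jam2, an adhesion molecule of cell junctions, averaged 2.18 ± 0.01 in pre-mid cells, 4.73 ± 0.82 in mid-late cells, 6.63 ± 0.37 in spermatids and 2.14 ± 0.03 in liver (SD). Its level was in the background range in pre-mid cells and liver and above it in the later germ cells. Cldn14, a claudin of tight junctions, averaged 2.85 ± 0.35 in pre-mid cells, 3.59 ± 0.25 in mid-late cells, 3.91 ± 0.19 in spermatids and 8.14 ± 0.08 in liver. Cxadr, the coxsackievirus and adenovirus receptor, averaged 2.65 ± 0.08 in pre-mid cells and 7.81 ± 0.31 in liver, and Bace2, a protease that cuts App, 2.44 ± 0.03 in pre-mid cells and 4.37 ± 0.36 in liver. All 3 were highest in liver. Slc5a3, a transporter of myo-inositol, and Dscam, an adhesion molecule of neurons, were above 3 on 1 array each (3.04 in a euploid pre-mid and 3.55 in a euploid spermatid array).

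No gene of this group was called between genotypes, with differences of -0.49 to 0.42 in liver and -1.03 to 0.15 in mid-late cells. Of the other genes of App processing 7 or 8 were tested in each cell type and none was called. Aplp2, an App relative, differed by -0.33 in liver, 0.62 in pre-mid cells, -0.08 in mid-late cells and 0.03 in spermatids. Aph1a, a subunit of gamma-secretase, differed by -0.11, 0.14, 0.53 and -0.12 in the same order.

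Of the 6 cytokine receptor and Mx genes, 3 were lower in each germ cell type than in liver, and Mx1 was higher in spermatids. Among all genes 23.1%, 24.8% and 27.3% were called lower than in liver in pre-mid cells, mid-late cells and spermatids, and 28.8% higher in spermatids. Ifnar2, the high-affinity chain of the type I interferon receptor, had 2.43, 2.42 and 2.45 in pre-mid cells, 2.48 and 2.51 in mid-late cells, 2.46, 2.47 and 2.50 in spermatids, against 8.55, 8.70 and 8.43 in liver. Every germ cell array was in the background range, and the difference to liver was -6.13 (SE 0.15, adjusted p = 9.07e-16) in pre-mid cells. Il10rb, a chain shared by receptors of the interleukin family, averaged 2.68 ± 0.07 in pre-mid cells, 2.58 ± 0.05 in mid-late cells, 2.64 ± 0.05 in spermatids and 7.34 ± 0.33 in liver (SD). Ifnar1, the other chain of the type I receptor, averaged 7.37 ± 0.45 in pre-mid cells, 4.88 ± 0.33 in mid-late cells, 3.57 ± 0.18 in spermatids and 8.44 ± 0.19 in liver, and so was above background in the germ cells where Ifnar2 was not. Ifngr2, a chain of the interferon gamma receptor, averaged 5.13 ± 0.62 in pre-mid cells, 4.94 ± 0.28 in mid-late cells, 5.59 ± 0.80 in spermatids and 6.16 ± 0.59 in liver. Mx1, an interferon-induced antiviral GTPase, was in the background range except in spermatids, at 5.04, 4.22 and 4.90 on trisomic and 4.62, 3.60 and 4.91 on euploid arrays, which overlapped. Its relative Mx2 was at background on every array.

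None of these genes was called between genotypes. The largest differences were -0.62 in liver and -0.52 in pre-mid cells (both Ifngr2) and 0.79 in mid-late cells (Ifnar1). Of the other genes of interferon signalling 1 of 11 tested fell in liver and none rose, and 1 of 5 rose in pre-mid cells and none fell. They were Stat2, a transcription factor downstream of Ifnar1 and Ifnar2, which fell by 0.74 in liver (SE 0.18, adjusted p = 0.0155), and Ifngr1, the partner of Ifngr2, which rose by 1.13 in pre-mid cells (SE 0.22, adjusted p = 0.0051). None of 4 tested was called in mid-late cells and none of 2 in spermatids.

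The 13 transcription factors and chromatin proteins spanned differences of -7.40 to 7.0 between pre-mid cells and liver. Ets2 had 2.22, 2.21 and 2.26 in pre-mid cells, 2.25 and 2.28 in mid-late cells, 2.25, 2.91 and 2.30 in spermatids, against 9.21, 9.92 and 9.76 in liver. It fell against liver in all germ cells, by 7.40 in pre-mid cells, 7.36 in mid-late cells and 7.15 in spermatids, which all lay in the background range. Bach1 had 4.53, 4.62 and 5.14 in pre-mid cells, 2.25 and 2.33 in mid-late cells, 2.27, 2.29 and 2.31 in spermatids, against 7.95, 8.19 and 8.71 in liver, and fell by 5.99 in mid-late cells against liver (SE 0.28, adjusted p = 6.85e-12). Gabpa, an ETS factor that drives genes of mitochondrial function, averaged 9.52 ± 0.41 in pre-mid cells, 9.69 ± 0.37 in mid-late cells, 9.03 ± 0.22 in spermatids and 7.80 ± 0.23 in liver (SD). Thus of Ets2 and Gabpa, the first was above background in liver only and the second was present in all 4 cell types.

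Mis18a had 13.13, 13.24 and 12.89 in pre-mid cells, 11.09 and 11.54 in mid-late cells, 7.25, 7.38 and 7.88 in spermatids, against 5.55, 5.88 and 6.84 in liver. It was highest in pre-mid cells, 7.0 (SE 0.30, adjusted p = 2.36e-12) above liver, and fell by 3.81 in spermatids against mid-late cells (SE 0.34, adjusted p = 1.76e-07). N6amt1 had 8.43, 8.26 and 8.56 in pre-mid cells, 4.64 and 4.64 in mid-late cells, 4.50, 3.91 and 4.60 in spermatids, against 6.20, 6.09 and 6.34 in liver, and fell by 3.78 in mid-late against pre-mid cells (SE 0.19, adjusted p = 6.93e-11). Chaf1b, a subunit of the chromatin assembly factor that follows DNA replication, had 4.85, 5.75 and 5.14 in pre-mid cells, 7.83 and 8.57 in mid-late cells, 7.75, 7.80 and 7.55 in spermatids, against 3.53, 2.69 and 2.69 in liver. It rose by 2.96 (SE 0.42, adjusted p = 1.42e-05) in mid-late against pre-mid cells. Morc3, an ATPase of nuclear bodies, had 12.17, 12.04 and 11.39 in pre-mid cells, 12.70 and 13.06 in mid-late cells, 9.90, 10.37 and 10.29 in spermatids, against 9.80, 9.17 and 9.62 in liver, and fell by 2.70 in spermatids against mid-late cells (SE 0.30, adjusted p = 1.87e-06).

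Hmgn1, a protein that binds nucleosomes and loosens chromatin, had 14.96, 15.01 and 14.69 in pre-mid cells, 12.38 and 12.14 in mid-late cells, 11.25, 11.28 and 11.87 in spermatids, against 14.82, 14.65 and 14.83 in liver. It fell by 2.63 in mid-late against pre-mid cells (SE 0.18, adjusted p = 2.14e-09). Brwd1 averaged 5.88 ± 0.16 in pre-mid cells, 7.72 ± 0.06 in mid-late cells, 7.54 ± 0.55 in spermatids and 6.13 ± 0.17 in liver (SD), and Setd4, a SET domain protein, 7.47 ± 0.10 in pre-mid cells, 6.57 ± 0.05 in mid-late cells, 7.66 ± 0.37 in spermatids and 6.96 ± 0.78 in liver. Between genotypes Setd4 differed by 0.88 (SE 0.38, adjusted p = 0.176) in liver and 1.02 (SE 0.38, adjusted p = 0.327) in spermatids, neither called. Among the other chromatin assembly genes Rbbp4, a partner of Chaf1b, rose by 1.14 in pre-mid cells (SE 0.24, adjusted p = 0.00791), 1 of 6 tested there with none lower. No gene of 5 tested was called in mid-late cells or of 5 in spermatids. None of the 4 to 6 tested relatives of Brwd1 and Morc3 was called in any cell type, and Brd2 and the testis gene Brdt differed by -0.36 and 0.27 in pre-mid cells.

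Hunk, among the 6 signalling genes, had 6.95, 7.73 and 7.34 in pre-mid cells, 13.33 and 13.28 in mid-late cells, 12.28, 12.49 and 12.14 in spermatids, against 5.89, 6.31 and 6.81 in liver. The mid-late level stood 5.97 (SE 0.25, adjusted p = 1.01e-11) above pre-mid cells, and the euploid arrays of these stages did not overlap. Synj1, a lipid phosphatase of vesicle recycling, averaged 10.88 ± 0.15 in pre-mid cells, 9.51 ± 0.25 in mid-late cells, 8.28 ± 0.37 in spermatids and 7.45 ± 0.03 in liver (SD), and Dyrk1a 7.95 ± 0.41 in pre-mid cells, 7.61 ± 0.62 in mid-late cells, 7.32 ± 0.39 in spermatids and 6.82 ± 0.17 in liver. Both averaged lowest in liver, but for Dyrk1a the liver arrays (6.63 to 6.95) overlapped those of spermatids (6.87 to 7.62). Rcan1, an inhibitor of the phosphatase calcineurin, averaged 4.96 ± 0.08 in pre-mid cells, 6.40 ± 0.24 in mid-late cells, 4.75 ± 0.20 in spermatids and 6.74 ± 0.42 in liver. It was thus low in pre-mid cells and spermatids. Tiam1 averaged 6.09 ± 0.47 in pre-mid cells, 5.62 ± 0.08 in mid-late cells, 5.36 ± 0.04 in spermatids and 4.34 ± 0.77 in liver, and Itsn1, a scaffold of endocytosis, was near background throughout, at 3.06 ± 0.03 in pre-mid cells, 3.33 ± 0.13 in mid-late cells, 3.93 ± 0.28 in spermatids and 3.0 ± 0.05 in liver. No gene of the group was called between genotypes, with differences of -0.52 to 0.09 in liver and -0.31 to 0.11 in pre-mid cells. Of the other calcineurin and NFAT genes none of 6 tested was called in any cell type. The catalytic subunits Ppp3ca and Ppp3cc differed by 0.27 and 0.42 in pre-mid cells.

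In protein quality control, Usp25 had 4.96, 5.82 and 4.76 in pre-mid cells, 6.45 and 5.54 in mid-late cells, 8.20, 7.46 and 8.60 in spermatids, against 10.90, 10.82 and 10.68 in liver. It averaged lowest in pre-mid cells, where it was called between genotypes and overlapped mid-late cells, and it rose by 2.09 (SE 0.41, adjusted p = 0.000585) in spermatids against mid-late cells. Psmg1 averaged 11.41 ± 0.10 in pre-mid cells, 11.02 ± 0.16 in mid-late cells, 9.96 ± 0.08 in spermatids and 11.38 ± 0.11 in liver (SD), so its euploid level in pre-mid cells was that of liver. Spermatids had the lowest level of Psmg1. Cct8, the theta subunit of the chaperonin CCT that folds actin and tubulin, had 13.60, 14.14 and 13.56 in pre-mid cells, 13.70 and 14.13 in mid-late cells, 12.99, 13.24 and 12.96 in spermatids, against 12.73, 12.62 and 12.65 in liver. Usp16, a deubiquitinase of histone H2A, averaged 10.42 ± 0.47 in pre-mid cells, 11.61 ± 0.14 in mid-late cells, 12.63 ± 0.16 in spermatids and 8.81 ± 0.24 in liver and was called higher in pre-mid cells than in liver (1.61), in mid-late than in pre-mid cells (1.19) and in spermatids than in mid-late cells (1.02). Ttc3 averaged 9.71 ± 0.16 in pre-mid cells, 7.18 ± 0.16 in mid-late cells, 5.72 ± 0.13 in spermatids and 6.59 ± 0.24 in liver, lower at each later germ cell stage. Ltn1, the ubiquitin ligase that clears stalled ribosomes, averaged 9.12 ± 0.16 in pre-mid cells, 8.51 ± 0.29 in mid-late cells, 8.76 ± 0.03 in spermatids and 7.80 ± 0.33 in liver.

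Between genotypes Cct8 differed by 0.02 (SE 0.18, adjusted p = 0.969) in liver and 0.42 (SE 0.19, adjusted p = 0.161) in pre-mid cells. Of the other CCT subunits 1 of 6 tested fell in liver (Cct3, by 0.54, SE 0.12, adjusted p = 0.00665) and none rose, and 1 of 7 rose in pre-mid cells (Cct5, by 0.44, SE 0.13, adjusted p = 0.0335) and none fell. No subunit of 7 was called in mid-late cells or spermatids. The change of 3 of 6 was higher in pre-mid cells than in liver in the test of that difference (Cct3 by 0.72, Cct5 by 0.71 and Cct7 by 0.64, adjusted p = 0.0288, 0.0269 and 0.0487). None of the 8 other genes of proteasome assembly and ribosome quality control was called. Pomp, a proteasome assembly factor, differed by 0.57 in liver, 0.28 in pre-mid cells, 0.02 in mid-late cells and 0.10 in spermatids, and Nploc4, a cofactor of the ATPase Vcp, by -0.56, 0.36, 0.02 and 0.16.

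Among the metabolic genes Sod1, the copper-zinc superoxide dismutase, had 15.60, 15.69 and 15.70 in pre-mid cells, 14.03 and 12.76 in mid-late cells, 15.35, 15.26 and 15.58 in spermatids, against 16.10, 16.01 and 16.17 in liver. The 2 mid-late arrays were the lowest and differed most between themselves. The elongating spermatid markers were also lowest in mid-late cells among the germ cells, and their part in the levels of Sod1 was not tested. Mrpl39, of the mitochondrial ribosome, had 13.70, 13.90 and 13.76 in pre-mid cells, 15.69 and 15.53 in mid-late cells, 15.47, 15.57 and 15.50 in spermatids, against 13.78, 13.59 and 13.80 in liver. Cbr1 had 4.59, 3.88 and 5.14 in pre-mid cells, 8.75 and 8.26 in mid-late cells, 8.51, 8.80 and 8.71 in spermatids, against 11.75, 12.01 and 11.62 in liver, and fell by 7.26 in pre-mid cells against liver (SE 0.27, adjusted p = 3.18e-13) and rose by 3.97 (SE 0.30, adjusted p = 9.71e-09) in mid-late against pre-mid cells. Cryzl1, a quinone reductase relative, averaged 9.25 ± 0.22 in pre-mid cells, 11.26 ± 0.10 in mid-late cells, 10.47 ± 0.15 in spermatids and 8.15 ± 0.22 in liver (SD), with the peak in mid-late cells. Gart, a trifunctional enzyme of purine synthesis, averaged 6.79 ± 0.20 in pre-mid cells, 6.73 ± 0.07 in mid-late cells, 6.48 ± 0.08 in spermatids and 8.32 ± 0.30 in liver. It was highest in liver, as was Hlcs, which attaches biotin to carboxylases, at 2.80 ± 0.11 in pre-mid cells, 3.32 ± 0.72 in mid-late cells, 2.71 ± 0.17 in spermatids and 6.01 ± 0.48 in liver.

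Apart from Cbr1 no gene of this group was called between genotypes, and Sod1 differed by -0.09 in liver, 0.05 in pre-mid cells, 0.25 in mid-late cells and -0.18 in spermatids. Of the other superoxide and peroxide enzymes 1 of 8 tested rose in liver and none fell, and 1 of 8 fell in pre-mid cells and none rose. They were Sod2, the mitochondrial dismutase on chromosome 17, which rose by 0.67 in liver (SE 0.13, adjusted p = 0.00247), and Gpx1, a glutathione peroxidase, which fell by 0.81 in pre-mid cells (SE 0.23, adjusted p = 0.0329). None of 6 tested was called in mid-late cells and none of 5 in spermatids, though the change of Prdx1, a peroxiredoxin, was lower in mid-late cells than in liver, by -0.95 (adjusted p = 0.0449). No other enzyme of purine synthesis was called (4 to 7 tested). Paics differed by 0.24, 0.10, -0.20 and -0.26 in liver, pre-mid cells, mid-late cells and spermatids, and Adsl by -0.29, 0.69, 0.21 and 0.39.

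Of the 5 genes grouped here under RNA processing, ribosome synthesis and replication, 4 were higher in pre-mid cells than in liver. The remaining 1, Rwdd2b, was lower. Among all genes 26.1% were higher and 23.1% lower. Urb1 had 11.76, 12.16 and 11.72 in pre-mid cells, 11.30 and 11.27 in mid-late cells, 9.36, 9.66 and 9.73 in spermatids, against 5.40, 4.95 and 6.34 in liver. Donson had 9.41, 9.42 and 9.03 in pre-mid cells, 12.44 and 11.93 in mid-late cells, 11.30, 11.70 and 11.90 in spermatids, against 4.65, 5.28 and 5.32 in liver. Both rose against liver in pre-mid cells, Urb1 by 6.32 (SE 0.27, adjusted p = 1.7e-12) and Donson by 4.20 (SE 0.20, adjusted p = 7.37e-12). Donson stood 7.10 (SE 0.22, adjusted p = 2.71e-14) above liver in mid-late cells. Rwdd2b, whose role is not well known, had 6.30, 6.78 and 7.69 in pre-mid cells, 7.76 and 7.71 in mid-late cells, 5.05, 6.01 and 4.70 in spermatids, against 8.68, 9.0 and 8.58 in liver, and fell by 2.48 in spermatids against mid-late cells (SE 0.37, adjusted p = 4.1e-05). Son, a splicing cofactor, averaged 7.67 ± 0.12 in pre-mid cells, 7.76 ± 0.02 in mid-late cells, 8.08 ± 0.25 in spermatids and 6.50 ± 0.13 in liver (SD), and Paxbp1, a partner of PAX transcription factors, 8.87 ± 0.22 in pre-mid cells, 8.12 ± 0.37 in mid-late cells, 7.01 ± 1.13 in spermatids and 7.55 ± 0.66 in liver. None of the 5 was called between genotypes in any cell type, and Rwdd2b differed by 0.89 (SE 0.32, adjusted p = 0.296) in spermatids.

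**Figure D5:**
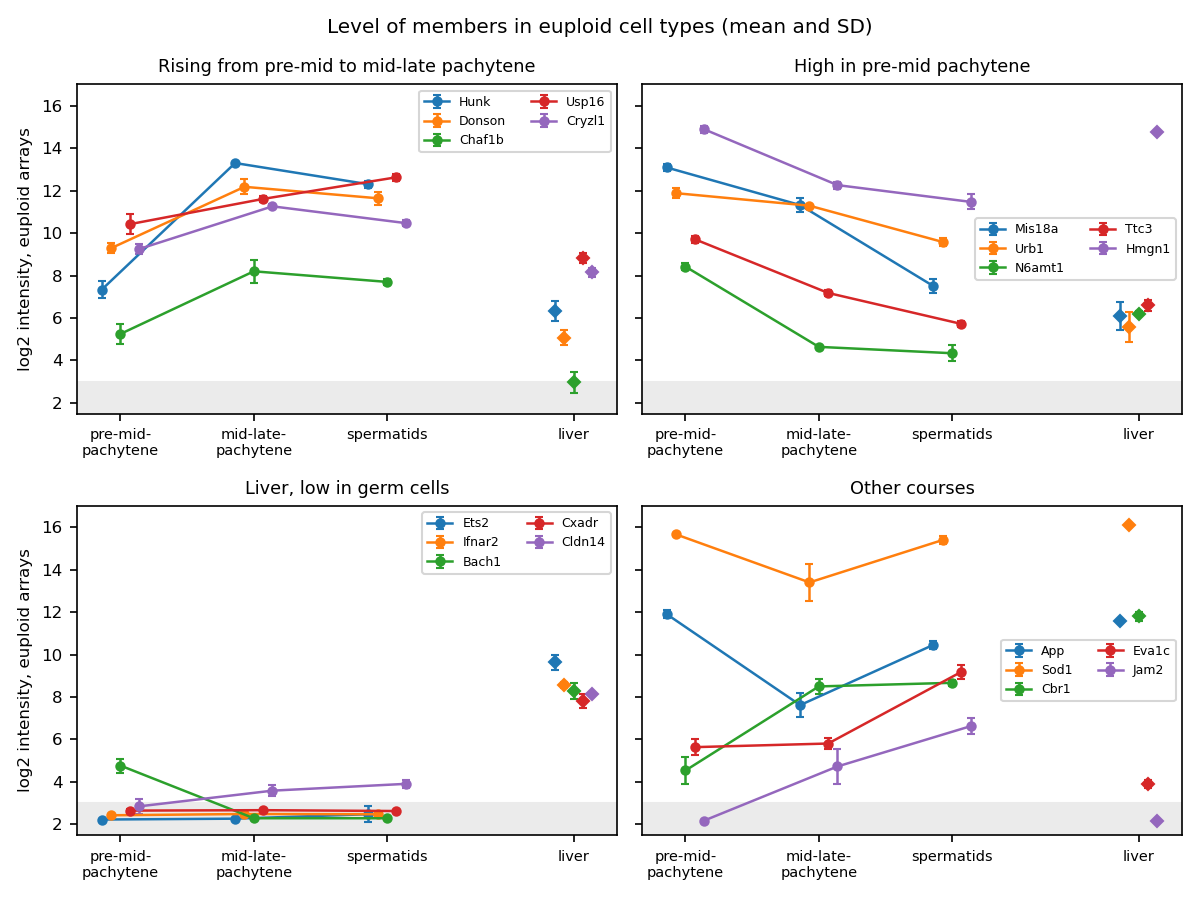
Euploid log2 intensity (mean and SD, vertical axis) of 20 genes in the 3 germ cell stages, joined by lines, and in liver (diamonds), with the background range shaded. Hunk, Donson and Chaf1b rise between pre-mid and mid-late cells, Mis18a and N6amt1 are highest in pre-mid cells, Ets2 and Ifnar2 are at background in all germ cells, and App is lowest in mid-late cells (7.21 and 8.02).

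Adamts1 and Adamts5, secreted proteases that cut proteoglycans of the extracellular matrix, were in the background range in all germ cells. In liver Adamts1 had 7.41, 6.22 and 6.50 on the trisomic arrays, against 5.05, 7.22 and 5.42 on the euploid arrays, a difference of 0.81 (SE 0.38, adjusted p = 0.209), and the arrays overlapped. Adamts5 had 4.17, 3.06 and 2.57 on the trisomic arrays, against 3.11, 3.46 and 2.93 on the euploid arrays, too low to be tested. The summed level of the endothelial and stellate markers was higher on all 3 trisomic liver arrays, as given above, and its part in the Adamts1 values was not tested.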

How the data were processed

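The values are log2 intensities from Affymetrix arrays, deposited as 1 table of 16539 probe sets that the authors normalized with GCRMA, per the submitters' processing notes. The GCRMA version and which arrays were normalized together are not given in the sources used here. RNA of sorted cells or liver (20 to 30 ng) went through 2 labelling cycles, per the labels' protocols, which can change relative levels. Replicate arrays correlated at 0.988 to 0.997, and the number of arrays limits the precision. A gene symbol was present for 15780 probe sets, 1 per gene.

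Groups were fitted together over 22 arrays in limma 3.58.1 (R 4.3.3), giving trisomic minus euploid differences within each cell type (genes with a mean of at least 4), differences between cell types over euploid arrays (a call needs an adjusted p under 0.05 and a difference of at least 1) and differences of the trisomic minus euploid change between germ cells and liver. Adjustment was by Benjamini-Hochberg over all genes tested. Fits were tested on simulated data. Values per array are given for genes called between genotypes, up to 3 per cell type with the largest differences and arrays apart, the 3 with the highest euploid level, and the 3 largest differences in each direction between cell types; of each list, the called genes or the 2 of highest mean. Alternatives were other filters, quantile and autosomal centring, limma's trend, fits of the compared cell types only, a replicate block and leaving out each array. The members, lists and tests were chosen with earlier results of these data known.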

Additional observations from a re-analysis of the deposited data

Results flagged for a closer look

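The trisomic minus euploid change of Psmg1 differed between pre-mid cells and liver in the test of that difference, by 0.62 (SE 0.17, adjusted p = 0.0444 by limma). It was higher by 0.66 on trisomic pre-mid arrays, apart from the euploid ones, and by 0.04 in liver. The change of Mis18a differed between spermatids and liver, by -1.78 (SE 0.41, adjusted p = 0.0445 by limma), with differences of -0.31 in spermatids and 1.47 in liver. Over the alternatives tried the adjusted p ran from 0.00657 to 0.114 for Psmg1 and from 0.011 to 0.165 for Mis18a.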

How the results depend on the processing

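The numbers of genes called between cell types stayed within 1.5 times of the reported ones under each alternative tried. Direction was followed only for genes called between genotypes or in the difference tests, and for the 3 largest cell type differences in each direction. None of these genes changed direction where it was tested. The median over the 52 genes in spermatids, reported as 0.01, ran from -0.01 (without trisomic replicate 1) to 0.04 (with arrays centred on the autosomal median). Called counts between genotypes were less stable. In liver the count was 2 with quantile normalization (1 higher, 1 lower), 3 with arrays centred on the autosomal median (1 higher, 2 lower) and 0 with liver arrays alone, and it ran from 1 to 7 when each array was left out. Centring moved the median over the 52 genes to -0.12 in liver, where it moved that of all genes to -0.10, and to 0.10 in pre-mid cells, where all genes moved to 0.09. In pre-mid cells the count was 1 with no filter on low values, 1 with a minimum mean of 6 and 0 with pre-mid arrays alone, and it ran from 1 to 4 when each array was left out, with the median between 0.01 and 0.05. The stricter filter leaves out Usp25 and Cbr1. Leaving out each array gave 0 to 2 calls in mid-late cells and 0 to 1 in spermatids. For the difference of the change between pre-mid cells and liver the count was 2 after centring and 0 with the compared cell types only, and ran from 0 to 2 without single arrays. For spermatids and liver it was 0 after centring, 0 with the compared cell types only and 0 to 1 without single arrays, and for mid-late cells and liver 0 to 1. The fits with fewer cell types have fewer arrays behind their spread, and the cause of the other shifts was not tested.

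Arrays of the 2 genotypes share replicate numbers in the labels, but same-numbered arrays did not all deviate together (correlations of 0.096 to 0.208 in liver, -0.121 to 0.192 in pre-mid cells, -0.036 in mid-late cells and -0.111 to 0.354 in spermatids), so the numbers were not taken as pairs. With the replicate block the count was 2 in liver (1 higher, 1 lower) and 1 in pre-mid cells, and 0 for the difference between pre-mid cells and liver and 0 for that between spermatids and liver. Genes with levels near the background range can show little change on arrays, and differences under about the 95% interval given cannot be resolved with 2 or 3 arrays. The alternative of averaging several probe sets of a gene was not run, as each gene had 1.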
